A study of Mus musculus with 8 samples.

Results

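The MAP kinase phosphatases are described here in mouse lung neutrophils, as 10 genes among the 24625 rows of an array table: Dusp1, Dusp2, Dusp3, Dusp4, Dusp5, Dusp6, Dusp7, Dusp8, Dusp10 and Dusp16. Each was found through the RefSeq identifier of its row, and each had exactly 1 row. The rule that picks their rows uses no difference between the groups, but the gene family was chosen with earlier results of these data known. The 8 samples were Ly6G-selected cells from wild type mice aged 6 to 12 weeks, per the labels. The study's methods give a narrower age range. They state that female C57BL/6J mice were bought to found colonies, and that the mice used were matched for age and sex. In 4 samples the mice had received Streptococcus pneumoniae (SP), a common cause of bacterial pneumonia, through the trachea, and in 4 they had received the carrier, phosphate-buffered saline (PBS), in the same volume of 2.3 µl per g of body weight. Lungs were taken after 24 h, digested to single cells, and cells that bound an antibody against the neutrophil surface protein Ly6G were collected on magnetic beads. No sample was an uninstilled control. The study's methods describe a check of neutrophil purity on stained cells for the pneumonia samples and do not describe one for the PBS samples. They also report high messenger RNA of the marker Ly6G in every sample. The labels do not say that each sample was a separate animal, while the study's figure legends describe each as coming from a mouse. The p-values set each difference between the groups against the spread between these samples within a group. Each sample was measured on 1 Affymetrix Mouse Gene 1.1 ST array, and values are the deposited log2 signals. A difference of 1 log2 unit is a 2-fold difference in signal. Levels are compared between groups within a gene, since probes of different genes do not share a scale. A gene was called where limma gave a p of at most 0.05 after adjustment over all rows.

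MAP kinases (ERK, JNK and p38) relay signals from growth factors, cytokines and bacterial products to the nucleus, and they are active when a threonine and a tyrosine of the same loop are both phosphorylated. Dual-specificity phosphatases of the DUSP family remove both phosphates and so end the signal. Many of their genes are transcribed in response to the pathway they shut off, which makes them negative feedback regulators. In phagocytes some of them, but not all, restrain cytokine production or the oxidative burst. They differ in place and in target: one group is nuclear and inducible, one cytoplasmic and directed at ERK, and one directed at JNK and p38.

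Stretches upstream of 5 members are shown because the members divide by a short motif there, the cAMP response element (CRE, TGACGTCA), which binds CREB and ATF factors that MAP kinase pathways activate. RefSeq start sites were available for 9 of the 10 members, all but Dusp4, and the 250 bases before each start were searched on both strands. Capitals mark the CRE or its core TGACG. The windows, 5′ to 3′ on the strand of the gene in GRCm38.p6, lie at chr17:26508473-26508722 (minus strand) for Dusp1, chr7:142095285-142095534 (minus) for Dusp8, chr19:53528895-53529144 (plus) for Dusp5, chr6:134792629-134792878 (minus) for Dusp16 and chr2:127335909-127336158 (plus) for Dusp2.
Dusp1: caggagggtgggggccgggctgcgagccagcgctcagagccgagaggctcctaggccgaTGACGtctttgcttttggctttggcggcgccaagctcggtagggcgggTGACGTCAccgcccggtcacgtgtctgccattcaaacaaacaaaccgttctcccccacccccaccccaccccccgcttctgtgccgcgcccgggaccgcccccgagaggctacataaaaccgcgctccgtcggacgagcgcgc
Dusp8: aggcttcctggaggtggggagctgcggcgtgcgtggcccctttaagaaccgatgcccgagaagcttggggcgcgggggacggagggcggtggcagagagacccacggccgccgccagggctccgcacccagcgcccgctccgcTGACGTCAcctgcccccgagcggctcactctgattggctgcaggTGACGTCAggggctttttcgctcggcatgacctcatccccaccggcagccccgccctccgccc
Dusp5: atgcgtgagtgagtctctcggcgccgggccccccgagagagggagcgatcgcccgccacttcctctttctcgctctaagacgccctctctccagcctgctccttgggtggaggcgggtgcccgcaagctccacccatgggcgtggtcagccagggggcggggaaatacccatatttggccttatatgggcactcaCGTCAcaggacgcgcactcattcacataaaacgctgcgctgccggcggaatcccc
Dusp16: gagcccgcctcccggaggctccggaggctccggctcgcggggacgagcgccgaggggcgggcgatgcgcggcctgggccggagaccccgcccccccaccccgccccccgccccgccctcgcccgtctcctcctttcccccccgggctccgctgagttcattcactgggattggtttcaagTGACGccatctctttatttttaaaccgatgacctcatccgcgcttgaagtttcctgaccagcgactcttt
Dusp2: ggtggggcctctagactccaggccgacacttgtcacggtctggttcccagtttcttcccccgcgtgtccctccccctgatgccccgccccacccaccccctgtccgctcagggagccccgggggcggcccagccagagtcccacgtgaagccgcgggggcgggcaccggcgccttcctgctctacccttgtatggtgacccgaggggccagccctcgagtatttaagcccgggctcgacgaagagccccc

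The full CRE was present in Dusp1, at bases 136 to 143 before the start, and in Dusp8, which held 2 copies, at bases 56 to 63 and 100 to 107. Of all 32851 mouse windows of that length, 1.55% held it. The core TGACG, which is also part of every full CRE, was found in Dusp1, Dusp5, Dusp8 and Dusp16, and in 17.8% of all windows. The Dusp2 window held neither and is shown because Dusp2 had the largest difference between the groups. No member window held the AP-1 motif TGANTCA (6.75% of all windows), the STAT motif TTCNNNGAA (7.02%), AGAACA, a core of the glucocorticoid receptor element (16.1%), or the NF-kB motif (7.25%). These letters are a description of the windows, not of binding. What the 9 windows had in common was base composition. Their GC content was 56.4% to 77.2%, beside a median of 52.4% over all windows, and they held 16 to 34 CpG dinucleotides, beside a median of 6. The CRE and TGACG each contain a CpG, and the shares of all windows were not matched for CpG content. Whether the members hold these motifs more often than windows of like composition was not tested.

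Of the 10 phosphatases, 4 were called higher in SP (Dusp2, Dusp5, Dusp10 and Dusp16), 3 were called lower (Dusp3, Dusp7 and Dusp8), and Dusp1, Dusp4 and Dusp6 were not called. Among all rows, 21.5% were called higher and 22.6% lower, 44.1% in either direction. At 2-fold the calls were 3 higher (Dusp2, Dusp5 and Dusp16) and 2 lower (Dusp3 and Dusp7), where the shares of all rows were 6.37% and 11.3%. The groups did not overlap for 7 of the 10 members, as for 49.0% of all rows. The median difference of the 10 was 0.24 log2 units, beside 0.10 for all rows. The 10 genes were not tested as a set, and they are described one by one.

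**Figure D1:**
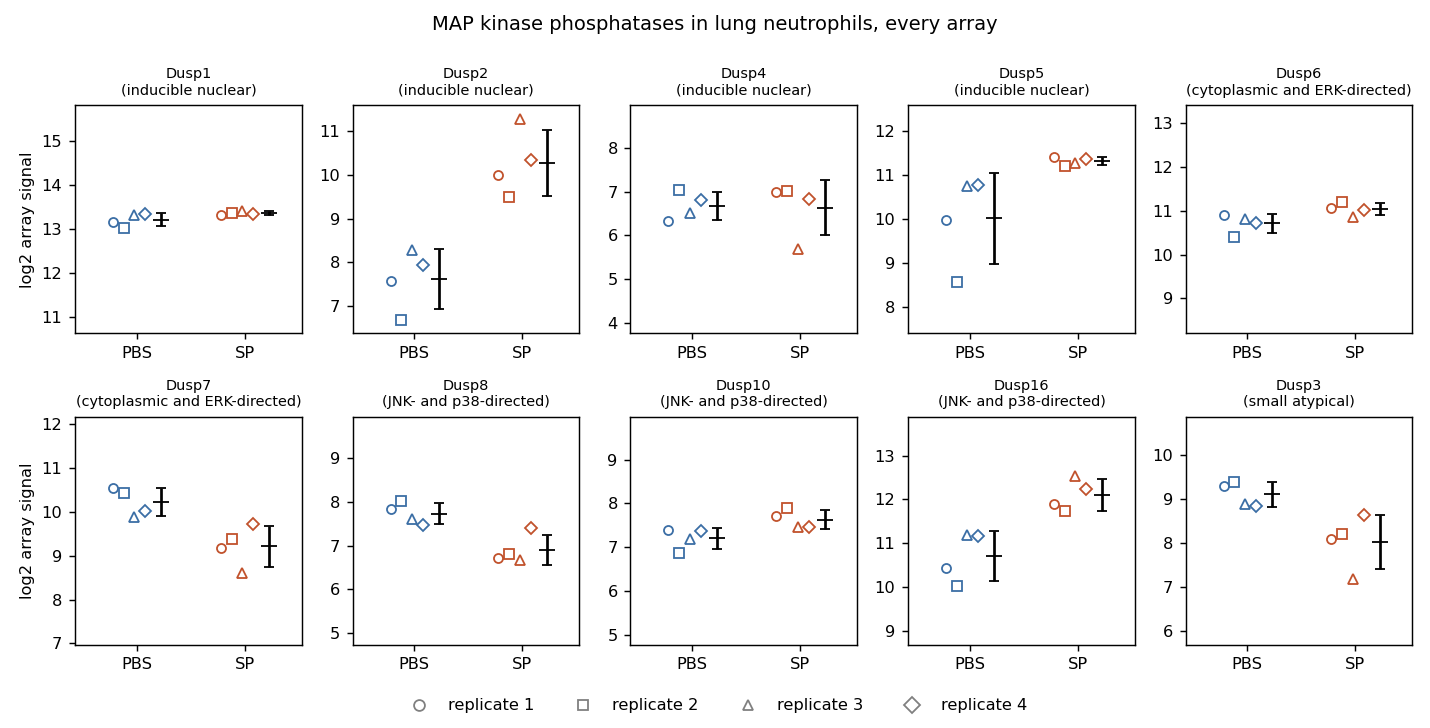
Log2 array signal (vertical axis, the same span of 5.2 units in each panel) of each phosphatase in the 4 PBS and 4 SP samples, with 1 symbol per replicate number and the mean ± SD in black. Dusp2 and Dusp16 lie higher in every SP sample, Dusp3 and Dusp7 lower, and the Dusp1 values all lie between 13.02 and 13.42.

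The inducible nuclear phosphatases did not behave alike: Dusp2 and Dusp5 rose, while Dusp1 and Dusp4 were not called. Dusp2 (PAC-1), a nuclear phosphatase of ERK and p38 first known from activated lymphocytes, had log2 signals of 7.58, 6.69, 8.28 and 7.95 in PBS samples 1 to 4 and of 9.99, 9.49, 11.28 and 10.34 in SP samples 1 to 4. Every SP sample lay above every PBS sample, with 1.21 log2 units between the highest PBS and the lowest SP sample. The means were 7.62 ± 0.69 and 10.27 ± 0.75 (SD, n = 4 each), a difference of 2.65 log2 units (SE 0.44, 95% CI 1.65 to 3.65), or 6.28-fold, with a limma adjusted p of 0.00167. It was the largest difference of the 10 genes.

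Dusp5, a nuclear phosphatase that acts on ERK alone and holds it in the nucleus, had log2 signals of 9.97, 8.57, 10.77 and 10.77 in the PBS samples and of 11.42, 11.22, 11.28 and 11.38 in the SP samples. The SP samples lay within 0.21 log2 units of each other, while PBS sample 2 lay far below the other PBS samples, and the groups did not overlap. The means were 10.02 ± 1.04 and 11.32 ± 0.09, a difference of 1.31 log2 units (SE 0.45, 95% CI 0.28 to 2.33), or 2.47-fold, with a limma adjusted p of 0.0439. Without PBS sample 2 the difference was 0.82 log2 units and was still called (limma adjusted p = 0.0153), under 2-fold. The call was lost when PBS sample 1 or any single SP sample was left out, and by the methods' t-test, with adjusted p between 0.0108 and 0.0928 over all 16 alternatives.

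Dusp1 (MKP-1), the nuclear phosphatase of p38 and JNK best known for limiting cytokine release by macrophages, was not called. Its log2 signals were 13.16, 13.02, 13.33 and 13.34 in PBS and 13.31, 13.36, 13.42 and 13.35 in SP, and the groups overlapped. The difference was 0.15 log2 units (SE 0.089, 95% CI -0.05 to 0.35, limma adjusted p = 0.19), an interval that leaves out a 2-fold rise on this scale. The brightest value of each array was 13.948 to 14.448, and whether signals this near that limit were compressed was not tested. When each array was centred on its median, the Dusp1 difference became 0.43 log2 units and was called (limma adjusted p = 0.0119), whereas adjusted p was 0.71 at its highest over the 16 alternatives.

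Dusp4 (MKP-2), a nuclear relative of Dusp1 that acts on ERK and JNK, had log2 signals of 6.32, 7.04, 6.52 and 6.81 in PBS and of 6.99, 7.01, 5.70 and 6.83 in SP. The groups overlapped, and SP sample 3 was the lowest of all 8. The means were 6.67 ± 0.31 and 6.63 ± 0.63, a difference of -0.04 log2 units (SE 0.30, 95% CI -0.74 to 0.66), with no call. Leaving out SP sample 3 turned the sign, to 0.27 log2 units, again with no call (limma adjusted p = 0.22, between 0.0556 and 0.99 over the 16 alternatives).

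The pair of cytoplasmic phosphatases directed at ERK gave unlike results. Dusp6 (MKP-3), the cytoplasmic ERK phosphatase whose transcription ERK itself drives, had log2 signals of 10.90, 10.41, 10.82 and 10.72 in PBS and of 11.07, 11.20, 10.86 and 11.01 in SP. SP sample 3 fell below PBS sample 1, and PBS sample 2 was the lowest. The difference was 0.33 log2 units (SE 0.12, 95% CI 0.04 to 0.61, limma adjusted p = 0.062), which missed the threshold. It passed without SP sample 3, at 0.38 log2 units (limma adjusted p = 0.0413), and with arrays centred on their median, at 0.61 log2 units (limma adjusted p = 0.00463), within a range of adjusted p up to 0.349 over the 16 alternatives.

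Dusp7 (MKP-X), the close relative of Dusp6, fell. Its log2 signals were 10.55, 10.44, 9.88 and 10.03 in PBS and 9.18, 9.37, 8.60 and 9.72 in SP. The groups did not overlap, with 0.16 log2 units between the lowest PBS and the highest SP sample. The difference was -1.01 log2 units (SE 0.25, 95% CI -1.58 to -0.44), or 2.01-fold lower, with a limma adjusted p of 0.012. The call held under all 16 alternatives, where differences ran from -1.17 to -0.73.

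All 3 phosphatases listed as directed at JNK and p38 were called, 2 higher and 1 lower, beside 44.1% of all rows in either direction. Dusp1, which also acts on JNK and p38 and was not called, was listed with the nuclear ones. Dusp16 (MKP-7), which moves between nucleus and cytoplasm and acts on JNK and p38, had log2 signals of 10.43, 10.03, 11.19 and 11.17 in PBS and of 11.89, 11.74, 12.54 and 12.23 in SP. Every SP sample exceeded every PBS sample, by at least 0.55 log2 units. The means were 10.70 ± 0.57 and 12.10 ± 0.36, a difference of 1.39 log2 units (SE 0.29, 95% CI 0.73 to 2.06), or 2.63-fold, with a limma adjusted p of 0.00561. Dusp16 and Dusp2 were the members that were called higher under all 16 alternatives.

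Dusp10 (MKP-5), a JNK and p38 phosphatase with a known part in restraining innate cytokine responses, had log2 signals of 7.39, 6.87, 7.18 and 7.37 in PBS and of 7.72, 7.89, 7.47 and 7.46 in SP. The groups did not overlap, but only 0.072 log2 units lay between them. The difference was 0.43 log2 units (SE 0.15, 95% CI 0.095 to 0.77), or 1.35-fold, with a limma adjusted p of 0.043. The call was kept in 2 of the 8 fits that left out 1 sample, those without SP sample 3 or SP sample 4, and lost by the methods' t-test, with adjusted p between 0.00433 and 0.0985 over the 16 alternatives. With the replicate number as a block its adjusted p in limma was 0.0911.

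Dusp8, a JNK and p38 phosphatase with a long carboxy-terminal tail, fell. Its log2 signals were 7.84, 8.01, 7.60 and 7.47 in PBS and 6.71, 6.82, 6.67 and 7.41 in SP. SP sample 4 came within 0.061 log2 units of the lowest PBS sample, and the other SP samples lay well below. The difference was -0.83 log2 units (SE 0.19, 95% CI -1.26 to -0.40), or 1.77-fold lower, with a limma adjusted p of 0.00807. The window with 2 copies of the CRE, shown above, is that of Dusp8, and the one with a single copy is that of Dusp1, which was not called. Whether the motif bears on these differences was not tested.

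Dusp3 (VHR), a small phosphatase without the MAP kinase binding domain of the others, acts on ERK and JNK. Its log2 signals were 9.31, 9.39, 8.90 and 8.84 in PBS and 8.09, 8.21, 7.18 and 8.64 in SP. All SP samples lay below all PBS samples, by at least 0.20 log2 units, and SP sample 3 was the lowest. The difference was -1.08 log2 units (SE 0.29, 95% CI -1.75 to -0.41), or 2.11-fold lower, with a limma adjusted p of 0.0184. Without PBS sample 1 the limma adjusted p was 0.0523 at a difference of -1.01, and it was 0.00801 at its lowest over the 16 alternatives.

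**Figure D2:**
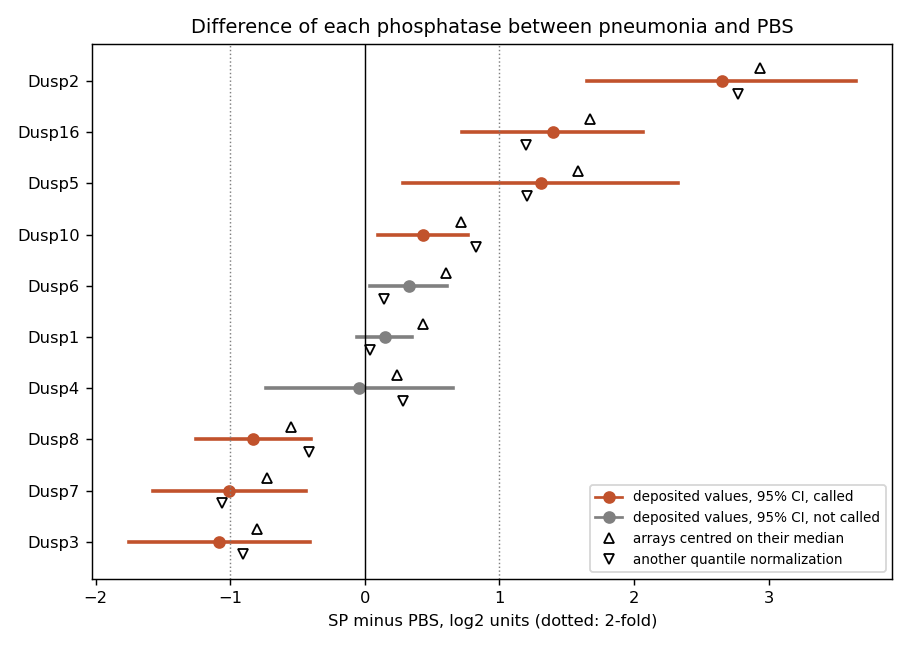
Difference in log2 signal, SP minus PBS (horizontal axis), of the 10 phosphatases with 95% confidence intervals from limma, in red where called and grey where not; triangles give the difference after centring each array on its median (pointing up) or another quantile normalization (pointing down). Differences run from -1.08 for Dusp3 to 2.65 for Dusp2, and under these scalings only Dusp4 changes sign.

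The scale matters for the small differences. The medians of the PBS arrays were 6.060 to 6.196 and those of the SP arrays 5.785 to 5.914. Centring the arrays raised the median difference over all rows from 0.10 to 0.38 log2 units, and another quantile normalization brought it to 0.016. Of the 10 members, Dusp4 was the only one whose sign these scalings turned, to 0.24 and 0.28. Differences of at least 1 log2 unit among the falls were lost when arrays were centred, with Dusp3 and Dusp7 still called as lower.

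Within each group the members moved with single samples. PBS sample 2 was the lowest PBS sample for 6 of the 10 members (Dusp1, Dusp2, Dusp5, Dusp6, Dusp10 and Dusp16) and the highest for 3 others (Dusp3, Dusp4 and Dusp8). Relative to the PBS mean, Dusp5 lay at -1.45, Dusp2 at -0.93 and Dusp16 at -0.67 log2 units in that sample. SP sample 3 was the highest SP sample for Dusp1, Dusp2 and Dusp16 and the lowest for Dusp3, Dusp4, Dusp6, Dusp7 and Dusp8. Dusp2 deviated there by 1.001 log2 units from the SP mean, Dusp4 by -0.93 and Dusp3 by -0.85. SP sample 4 was the highest SP sample for each of the 3 phosphatases that fell.

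The summed signal of marker genes of other lung cells varied over the same samples. All 7 ciliated epithelial markers with a row were called lower in SP, with a log2 summed signal of 12.72 to 13.49 in PBS and 10.03 to 10.82 in SP. So were all 4 club cell markers (14.98 to 15.33 in PBS and 13.55 to 13.91 in SP), 6 of 7 markers of alveolar type 2 cells (15.16 to 15.54 and 13.73 to 14.76), 4 of 5 of alveolar type 1 cells (12.45 to 13.37 and 10.78 to 12.01), and 7 of 8 of endothelium (13.70 to 14.62 and 12.38 to 13.21). In each of these 5 lists PBS sample 2 was the highest PBS sample. SP sample 3 was the lowest SP sample in 4 of them, all but the club cell list, and SP sample 4 was the highest for alveolar type 1, alveolar type 2, endothelial and club cell markers. None of these markers lay at or under the highest value of the Y-linked rows, 4.90. Those rows lay at 4.33 to 4.90 over all samples and serve as a background level. The sex of the mice studied is not stated. Fewer cells of a type and less RNA per cell cannot be told apart in bulk samples. The part of these cells in the results for Dusp3, Dusp7 and Dusp8, which in SP were lowest in sample 3 and highest in sample 4, was not tested. Nor was their part tested for Dusp2, Dusp5, Dusp10 and Dusp16, each lowest of the PBS samples in PBS sample 2. Dusp2 and Dusp16 were also highest of the SP samples in SP sample 3.

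Neutrophil markers were high throughout, at a log2 summed signal of 16.18 to 16.37 in PBS and 15.72 to 16.44 in SP. Of the 11, 3 were called lower and none higher, and the list was lowest in PBS sample 2 among the PBS samples and highest in SP sample 3 among the SP samples. Monocyte and macrophage markers went the other way: 3 of 7 were called higher, with sums of 11.28 to 12.24 in PBS and 12.00 to 12.99 in SP, and the lowest sample of each group was PBS sample 2 and SP sample 3. The 7 alveolar macrophage markers with a row gave 4 calls lower and 1 higher, with overlapping sums of 12.84 to 13.60 and 12.41 to 13.10. All 5 B cell markers were called lower (10.68 to 11.65 and 8.51 to 9.99). Fibroblast markers gave 2 calls lower of 7 (12.48 to 13.02 and 10.74 to 12.78), dendritic cell markers 2 lower of 5 (8.10 to 8.78 and 7.51 to 7.66), T cell markers 1 higher of 5 (7.73 to 8.55 and 7.90 to 9.06), and eosinophil markers 1 higher of 5 (8.08 to 9.41 and 8.07 to 8.66). With PBS sample 2 and SP sample 3 both left out, 4 phosphatases were called higher (Dusp2, Dusp5, Dusp6 and Dusp16) and the same 3 lower, none of them at 2-fold lower.

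**Figure D3:**
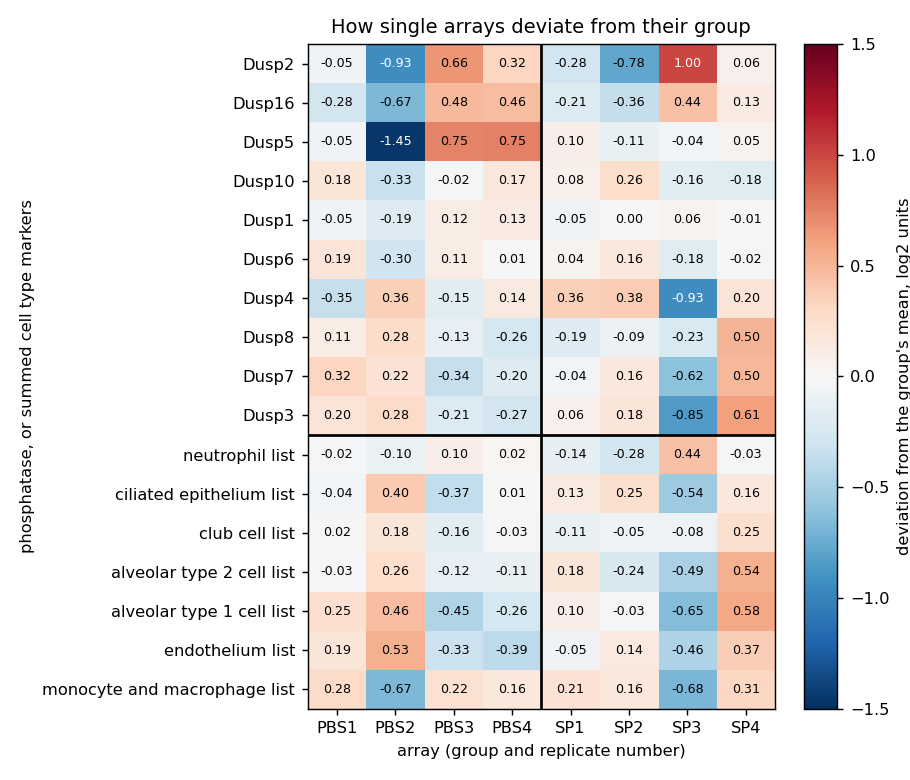
Deviation of each sample from the mean of its group, in log2 units (colour and printed value), for the 10 phosphatases (rows above the line) and for the summed signal of 7 cell type marker lists (rows under it). PBS sample 2 and SP sample 3 show the deepest colours, with -1.45 for Dusp5 in PBS sample 2 and 1.001 for Dusp2 in SP sample 3.

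The remainder of the pathway was read from lists of kinases, scaffolds, target genes and other phosphatases. Of 102 genes listed, 97 had a row, and 28 of them were called higher and 24 lower, with a median difference of 0.064 log2 units. Over all rows, 21.5% were called higher and 22.6% lower, with a median difference of 0.10. No list was tested as a set. Centring the arrays raised the calls higher to 46, while the median difference over all rows rose to 0.38 log2 units. The share of all rows called after centring was not counted. Among 13 MAP kinases, 3 were called higher and 4 lower. Mapk7 (ERK5), an ERK relative with a large carboxy-terminal domain, rose by 2.77 log2 units (limma adjusted p = 3.53e-06). Its log2 signals were 7.35, 7.31, 7.20 and 7.08 in PBS and 10.24, 10.10, 9.77 and 9.91 in SP, with a gap of 2.42 between the groups. Mapk6 (ERK3), an atypical kinase, rose by 2.23 (limma adjusted p = 2.52e-05), and Mapk15, an atypical kinase that is also found at cilia, fell by 2.29 (limma adjusted p = 2.86e-04).

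Some of the kinases these phosphatases dephosphorylate were chosen for the text after their values had been seen. Mapk14 (p38 alpha) fell by 1.43 log2 units (limma adjusted p = 1.98e-04), from 11.03, 10.96, 11.52 and 11.51 in PBS to 9.75, 9.79, 9.72 and 10.06 in SP, and the groups lay 0.91 apart. Mapk3 (ERK1) fell by 0.85 (limma adjusted p = 3.65e-04). Mapk8 (JNK1) rose by 0.81 (limma adjusted p = 0.0154), from 8.14, 8.37, 8.13 and 8.10 in PBS to 8.79, 8.82, 9.69 and 8.68 in SP. Mapk9 (JNK2) differed by -0.26, or 0.021 with arrays centred, and was not called.

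Among the 6 MAP kinase kinases with a row, Map2k1 (MEK1), which activates ERK, rose by 1.63 log2 units (limma adjusted p = 6.40e-04) and Map2k7, which activates JNK, fell by 0.56 (limma adjusted p = 6.86e-03), while 4 were not called. Of all rows, 21.5% were called higher and 22.6% lower, with a median difference of 0.10. Of 18 kinases one tier up, 5 were called higher and 9 lower, with a median of -0.53. The largest rise there was that of Map3k8 (TPL2), which couples Toll-like receptors to ERK, by 2.50 log2 units (limma adjusted p = 7.38e-05), with signals of 8.50 to 9.50 in PBS and 11.33 to 11.93 in SP. The largest fall was that of Map3k12, a kinase upstream of JNK, by 1.22 (limma adjusted p = 3.43e-04).

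Of 11 kinases that MAP kinases activate, 5 were called higher and 1 lower, beside 21.5% and 22.6% of all rows. Rps6ka4 (MSK2), a nuclear kinase that phosphorylates CREB and histone H3, rose by 2.13 log2 units (limma adjusted p = 6.76e-06), and Rps6ka2 (RSK3), an ERK-activated kinase, by 2.05 (limma adjusted p = 4.93e-05). Mapkapk2 (MK2), the p38-activated kinase that stabilises cytokine messenger RNAs, was named after its value had been seen and rose by 1.45 (limma adjusted p = 3.66e-05). Rps6ka1 (RSK1) fell by 0.40 (limma adjusted p = 0.042), with overlapping groups and a call in 7 of 16 alternatives. Among 6 scaffolds with a row, Spag9 (JIP4) rose by 1.01 (limma adjusted p = 4.07e-05), Mapk8ip1 (JIP1) fell by 0.79 (limma adjusted p = 4.78e-04), and 4 were not called.

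Of 14 ERK feedback and target genes, 3 were called higher and 3 lower, near the shares of all rows (21.5% and 22.6%). Ier3, an immediate early gene that prolongs ERK signalling, rose by 2.33 log2 units (limma adjusted p = 4.53e-04), and Etv5, an ETS factor transcribed in response to ERK, fell by 2.33 (limma adjusted p = 2.22e-03), with its highest sample again PBS sample 2. Among 8 genes that glucocorticoids induce, as they do Dusp1, 3 were called higher and none lower. The largest rise was that of Fkbp5, a co-chaperone of the glucocorticoid receptor, by 2.00 (limma adjusted p = 4.17e-05).

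Other phosphatases were counted in the same way. Dusp9, the classical MAP kinase phosphatase that is not among the 10, was named after its values had been seen and lay at 4.98 to 5.54 in the 8 samples, near the Y-linked rows (4.33 to 4.90), with no call. The list of other MAP kinase phosphatases, which holds Dusp9 and enzymes of other families, had 6 genes with a row, of which 3 were called higher and none lower. The largest rise was that of Ptpn7, a tyrosine phosphatase of blood cells that acts on ERK and p38, by 1.61 log2 units (limma adjusted p = 1.54e-04). Of 15 atypical dual-specificity phosphatases, 4 were called higher and 5 lower, beside 21.5% and 22.6% of all rows. Dusp13 rose by 1.94 log2 units (limma adjusted p = 3.30e-04), with PBS signals of 4.38 to 4.56, a level like that of the Y-linked rows, and SP signals of 5.83 to 7.01. Dusp18 fell by 2.05 (limma adjusted p = 9.55e-05) and Dusp14 by 2.02 (limma adjusted p = 3.66e-04), and both were highest in PBS sample 2 and lowest in SP sample 3.

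**Figure D4:**
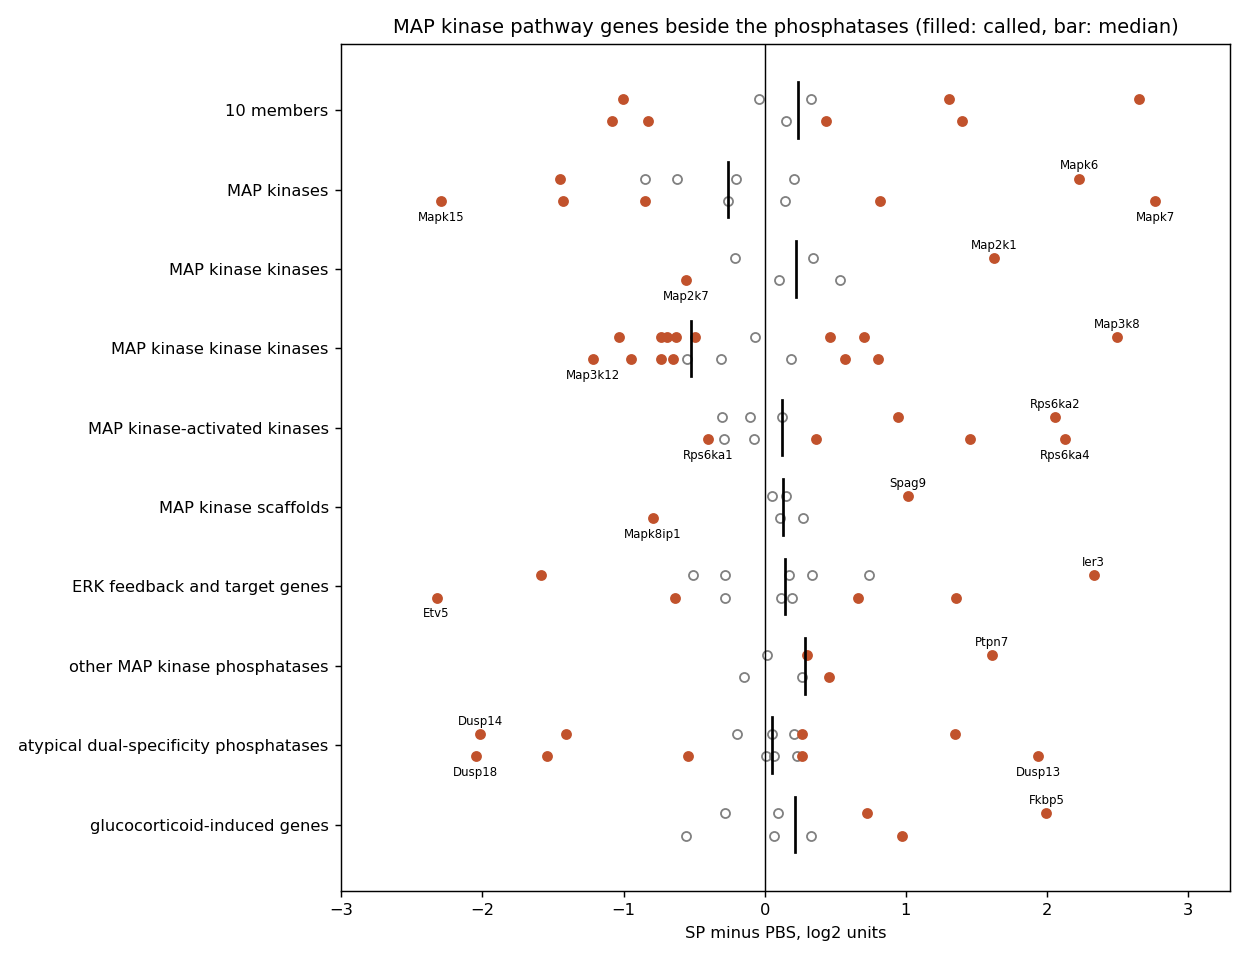
Difference in log2 signal, SP minus PBS (horizontal axis), of each gene of the 10 members and of 9 lists of MAP kinase pathway genes (rows), filled where called by limma and open where not, with the median of each list as a bar. Medians lie between -0.53 for MAP kinase kinase kinases and 0.28 for other MAP kinase phosphatases, and every list but 2 holds calls in both directions. Of all rows, 21.5% were called higher and 22.6% lower.

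The genes whose signals followed Dusp2 and Dusp3 most closely over the 8 samples are given as a description, since both groups and all arrays are shared. For Dusp2 these were Gm3086 (Pearson r = 0.996), Il9 (0.993) and H3f3b (0.992). Il9 had means of 4.21 in PBS and 4.48 in SP, at the level of the Y-linked rows, and its difference of 0.27 log2 units was far smaller than that of Dusp2. H3f3b, which encodes a replacement histone, had means of 12.70 and 12.98. For Dusp3 the closest were Ubfd1 (0.998), Cand1 (0.997) and Cse1l (0.997), with differences of -0.96, -0.39 and -0.87 log2 units.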

How the data were processed

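Messenger RNA was measured in 8 samples, 4 SP and 4 PBS, grouped by sample title. The deposited values are log2 signals that the authors made by robust multi-array averaging: signals were corrected for background and for probe base composition, normalized by quantiles and summarised by median polish over the probes assigned to each gene. The submitters' notes name Affymetrix Expression Console and Partek. Values are relative within an array, so a change in total RNA per cell cannot be read. Columns of all 8 arrays were used; the microRNA arrays were not analysed here. RefSeq identifiers were matched without versions to NCBI RefSeq genes and promoter windows of GRCm38.p6, which gave 19915 of 24625 rows (80.9%) a symbol.

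All rows were tested with limma (version 3.58.1, R 4.3.3; lmFit and eBayes, two-sided). Adjustment over all rows followed Benjamini and Hochberg, with a threshold of 0.05 and a further threshold of 2-fold. The test was first tested on simulated data. Confidence intervals (95%) are not adjusted for multiple genes. Array number limits the precision. Members and gene lists were chosen with earlier results of these data known. Named genes were all members, the largest called rise and fall of each list, list genes with a 4-fold difference, and the 3 genes most like the members with the largest rise and fall; exceptions are stated. One gene of the lists is counted but its own result is not reported here. Cell type signals are log2 of the summed linear signal of each list. Alternatives were the methods' t-test, the replicate number as a block, a prior made robust and with a trend on intensity, other scalings, dim rows left out, 1 row per symbol and leaving out each sample; leaving out PBS sample 2 and SP sample 3 together was chosen after seeing the data. Figures were drawn with Python 3.11.15.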

Additional observations from a re-analysis of the deposited data

Results flagged for a closer look

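Single samples stood apart from the other 3 of their group in 5 of 82 groups of 4 values, and chance gives about 1 in 20. The ratio of the gap to the range, given with each, was above Dixon's critical value. One of the 20 groups of members was among them: Dusp4 was lowest in SP sample 3, at 5.70 (ratio 0.862). Among the pathway genes, Etv5 was highest of the PBS samples in PBS sample 2, at 10.16 (0.874). Mapk8 was highest in PBS sample 2, at 8.37 (just above the critical value), and in SP sample 3, at 9.69 (0.86). Rps6ka4 was lowest of the SP samples in SP sample 4, at 9.14 (0.923).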

How the results depend on the processing

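Dusp2, Dusp7, Dusp8 and Dusp16 kept their direction and call under all 16 alternatives, with differences of 2.01 to 2.93, -1.17 to -0.73, -0.996 to -0.415 and 1.02 to 1.68 log2 units. The causes of the following changes were not tested. With arrays centred on their median, Dusp1 (0.43) and Dusp6 (0.61) were called, Dusp4 became 0.24, Dusp9 0.14 and Mapk9 0.021 without a call, no member was called lower at 2-fold (0 in place of 2), and 46 pathway genes were called higher. That scaling also raised the median difference over all rows, to 0.38 log2 units. With another quantile normalization Dusp4 became 0.28 and Map2k4 -0.065, Dusp5 (1.20), Map2k7 (-0.27) and Mapk8ip1 (-0.34) lost their calls, and 1 member was called lower at 2-fold. By the methods' t-test Dusp5 (1.31, adjusted p = 0.0876) and Dusp10 (0.43, adjusted p = 0.0713) were not called, which left 2 members higher. Dusp10 also lost its call with a robust prior (0.43, limma adjusted p = 0.0654). Deviations of same-numbered samples from their group means correlated at 0.0156, 0.0304, 0.35 and -0.274, beside -0.363 to 0.283 for the other pairs. With 4 samples per group these values cannot settle whether replicate numbers pair the samples. With a replicate block Dusp10 (0.43, limma adjusted p = 0.0911) was the only member to lose its call. Leaving out both PBS sample 2 and SP sample 3 gave 0.39 for Dusp4, 0.28 for Dusp6 with a call, 0.38 for Dusp10 without one, -0.15 for Map2k4, and 0 members lower at 2-fold. Leaving out 1 sample at a time, differences ran from -0.17 to 0.27 for Dusp4, 0.82 to 1.56 for Dusp5, 0.22 to 0.39 for Dusp6, 0.32 to 0.49 for Dusp10, -1.28 to -0.80 for Dusp3 and -0.029 to 0.20 for Map2k4, and 2 to 4 members were called higher and 0 to 2 lower at 2-fold. The count higher was 2 without PBS sample 1, SP sample 1 or SP sample 2. The count lower at 2-fold was 0 without PBS sample 1, PBS sample 2 or SP sample 3.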
